A study of Mus musculus with 9 samples.

Results

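The nuclear genes of oxidative phosphorylation were taken as every row of the UMI (unique molecular identifier) table whose symbol starts with Ndufa, Ndufb, Ndufc, Ndufs, Ndufv, Sdha to Sdhd, Uqcr, Cox4 to Cox8 or Atp5, with rows marked as pseudogenes (-ps) left out. This gave 101 of 32195 genes. They comprised 39 subunits and 8 assembly factors of complex I, 4 subunits and 4 assembly factors of complex II, 8 subunits of complex III, 21 of complex IV (Ndufa4 and Ndufa4l2 included) and 17 of ATP synthase. Single-cell RNA-seq libraries of the mouse epididymis were examined for the levels of these genes along the duct, between ages and between cell types. The caput, corpus and cauda were each sampled in 3 pools of untreated wild-type C57BL/6 mice (C57BL/6J in the study's methods), 1 pool of 5 mice at postnatal day 42 (P42) and 2 pools, drawn from 10 mice, at postnatal day 56 (P56 replicates 1 and 2), which made 9 libraries with 3 per segment. No mutation, transgene or treatment separated the groups, and the 3 segments of a pool came from the same mice. Each library was made from pooled animals, so the spread between mice was not measured and there was 1 pool at P42.

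Oxidative phosphorylation couples the oxidation of NADH and succinate to the synthesis of ATP in the inner mitochondrial membrane. Complex I (the NADH dehydrogenase, encoded by the Nduf genes) and complex II (succinate dehydrogenase, Sdha to Sdhd, which is also an enzyme of the citric acid cycle) pass electrons to ubiquinone, complex III (Uqcr genes) passes them to cytochrome c, and complex IV (cytochrome c oxidase, Cox genes) passes them to oxygen. ATP synthase (Atp5 genes) then uses the proton gradient that complexes I, III and IV build. Complexes I, III, IV and ATP synthase hold subunits encoded by mitochondrial DNA beside the nuclear ones, whereas every subunit of complex II is nuclear. Several complex IV subunits exist as paralogues restricted to lung, heart and skeletal muscle or testis. In the epididymis, principal cells secrete most of the luminal proteins, and clear and narrow cells, rich in mitochondria, pump protons into the lumen through the V-ATPase.

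Of 44869 barcodes, 42087 cells passed the filters with 265307692 UMIs. The libraries held 23114756 to 50655384 UMIs each. A total of 143 barcodes of 12 bases occurred in more than 1 library. Cells were assigned to classes by lists of marker genes that contain none of the members, and 30412 cells entered a class, of which 17203 were principal-like, 4685 clear/narrow-like, 2867 basal-like and 495 sperm-like. Basal markers were highest in the basal-like class for 10 of 12 genes and clear/narrow markers in the clear/narrow-like class for 10 of 13, but only 7 of 21 secretory markers were highest in the principal-like class when libraries were pooled. Within each of the 9 libraries the summed secretory markers were highest in principal-like cells. The gate used these same marker lists, so the marker checks in part restate it. Macrophage/monocyte-like cells held 14.4 to 68.4% of the principal-like level, so that UMIs of principal cell genes were also counted in cells of other types. In the P42 cauda library a cell held a median of 264 fibroblast/myoid marker UMIs per 10000, beside 1.28 to 18.7 in the other 8 libraries. The counts of members called are also given without it. For principal-like, basal-like and clear/narrow-like cells against other classes, only a range over left-out pools and this library is given.

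Promoter sequence was searched for the binding motifs of 3 factors known to control respiratory chain genes. Of the 101 members, 80 had a RefSeq promoter entry (GRCm38.p6), and the 250 bases before the gene start were read on both strands. Cox4i1, Cox4i2 and Sdhc were not among these 80. The core of the nuclear respiratory factor 1 (NRF1) site, CGCATGCG, occurred in 7 member promoters (8.75%) and in 1.58% of all 27025 promoters. The ETS core bound by GABP (nuclear respiratory factor 2), CCGGAAG, occurred in 15 (18.8%) and in 7.05% of all promoters, and the cyclic AMP response element TGACGTCA in 4 (5.0%) and in 1.62%. By their letters, 2 different motifs of these cannot overlap, and a match is a description of the sequence only. The counts are over the uncut windows, and the windows printed here can be shorter: the ETS core counted for Cox6a1 and the cyclic AMP response element counted for Ndufa11 lie outside the printed bases. The window of Sdhb, which is not printed, has no match to the 3 motifs. The windows of 5 genes named below are printed 5′ to 3′ on the gene's strand. These are cut short where they reach an annotated exon and are in lower case with the matches in capitals. They were chosen as a complex III subunit that rose distally, the common partner of a muscle form, a complex II subunit, the member highest in basal-like cells and a testis form: Uqcr11 (chr10:80406831-80407071, minus strand, 241 bases) has an ETS core, Cox6a1 (chr5:115348982-115349129, minus strand, 148 bases) has an NRF1 core, Sdhd (chr9:50603850-50603909, minus strand, 60 bases) has an ETS core, read on the other strand, Ndufa11 (chr17:56717686-56717761, plus strand, 76 bases) has an NRF1 core and Cox7b2 (chr5:71548206-71548455, minus strand, 250 bases) has no match.
Uqcr11: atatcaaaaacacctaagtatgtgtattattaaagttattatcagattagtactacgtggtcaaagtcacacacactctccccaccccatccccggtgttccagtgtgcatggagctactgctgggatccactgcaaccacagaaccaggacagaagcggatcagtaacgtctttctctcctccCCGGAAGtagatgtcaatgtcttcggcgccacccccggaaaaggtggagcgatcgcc
Cox6a1: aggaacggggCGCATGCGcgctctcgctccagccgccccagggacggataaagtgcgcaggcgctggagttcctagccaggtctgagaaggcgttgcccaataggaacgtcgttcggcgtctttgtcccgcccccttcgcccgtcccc
Sdhd: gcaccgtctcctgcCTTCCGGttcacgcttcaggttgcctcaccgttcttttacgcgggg
Ndufa11: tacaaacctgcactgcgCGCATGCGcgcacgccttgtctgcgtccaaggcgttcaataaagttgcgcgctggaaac
Cox7b2: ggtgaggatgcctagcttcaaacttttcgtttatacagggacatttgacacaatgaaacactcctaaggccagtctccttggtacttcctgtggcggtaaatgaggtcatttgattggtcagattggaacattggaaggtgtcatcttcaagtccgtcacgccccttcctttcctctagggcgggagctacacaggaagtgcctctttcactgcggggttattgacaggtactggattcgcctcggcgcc

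The first question was whether the respiratory chain genes follow the segments within principal-like cells, the main epithelial cell of the duct. In the corpus and cauda 40 of the 98 tested members were higher than in the caput and 12 were lower. Subunits of complex I and complex IV made up most of the higher genes, whereas complex II went the other way. For comparison, 23.5% of all 15573 genes tested were called higher and 25.2% lower, where 40.8% and 12.2% of the members were. The median log2 fold change of the tested members was 0.32, beside 0.00 over all genes tested. UMIs were summed per library and tested with edgeR's quasi-likelihood test with the pool as a block, and a gene counted as called when its p, adjusted by the Benjamini-Hochberg method over all genes tested, was under 0.05.

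**Figure D1:**
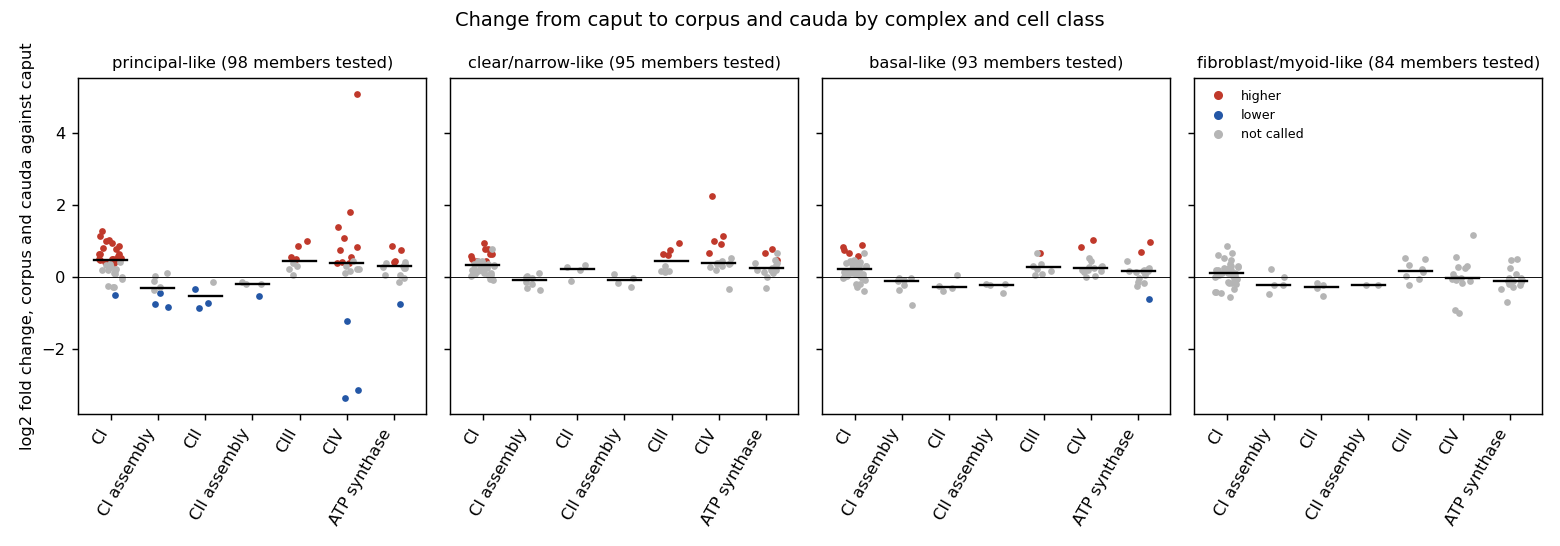
log2 fold change of corpus and cauda against caput (y axis) of each tested member by complex (x axis) in principal-like, clear/narrow-like, basal-like and fibroblast/myoid-like cells, red where called higher, blue where called lower, grey where not called, with a line at the group's median. In principal-like cells 22 of 38 complex I subunits were higher and 3 of 4 complex II subunits lower, and in fibroblast/myoid-like cells no member was called.

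Complex I gave the most calls. Of its subunits 22 of 38 tested were higher and 1 lower, with a median log2 fold change of 0.47. Ndufb7, an accessory subunit on the intermembrane side of the membrane arm (chr8:83566671-83571626, plus strand, GRCm38), was measured at 109, 152 and 151 CPM in caput libraries, 338, 529 and 519 in those of the corpus and 213, 273 and 241 in those of the cauda (CPM, UMIs per 1000000, in order of P42, P56 replicate 1 and P56 replicate 2, as in every set of 3 values that follows). The caput values lay below the 6 others, and the corpus values above those of the cauda (log2 fold change 1.28, SE 0.14, adjusted p = 2.99e-05). Other accessory subunits of the membrane arm and its surroundings rose as well, Ndufb8 by 1.03, Ndufb9 by 1.0, Ndufb4 by 0.86 and the X-linked Ndufa1 by 0.94 on the log2 scale. Among subunits of the catalytic core, Ndufs8 (0.53) and Ndufs3 (0.48) were called higher, whereas Ndufs1, which carries iron-sulphur clusters of the electron path, had a log2 fold change of 0.07 and Ndufv1, which binds NADH, of 0.17, neither called. Ndufa13, known also as GRIM-19, was the 1 complex I subunit to fall (log2 fold change -0.51, SE 0.13, adjusted p = 0.00766). Of the complex I assembly factors 0 of 8 tested were higher and 3 lower, with a median log2 fold change of -0.32; Ndufaf1 fell by 0.85 and Ndufaf6 by 0.76 on the log2 scale.

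Complex IV held the largest change of a highly detected member. Cox4i1, the common form of the regulatory subunit 4 (chr8:120668222-120674207, plus strand), was measured at 867, 903 and 912 CPM in caput libraries, 2799.7, 3657 and 3648 in those of the corpus and 2274, 3351 and 3239 in those of the cauda. The caput values lay far below the 6 others, and the groups did not overlap (log2 fold change 1.80, SE 0.17, adjusted p = 1.12e-05). Its paralogue Cox4i2, known as the form of the lung and of low oxygen (chr2:152754173-152765037, plus strand), was detected at 3, 6 and 4 UMIs in the caput, 136, 115 and 234 UMIs in the corpus, 7, 148 and 122 UMIs in the cauda, from P42 to P56 replicate 2. It was higher in the distal segments (log2 fold change 5.09, SE 0.46, adjusted p = 8.39e-06), but remained rare. It made up 0.260% of the UMIs of the pair over all libraries, and 0.0261 to 0.627% in single libraries. Of all complex IV subunits 10 of 19 tested were higher and 3 lower, with a median log2 fold change of 0.39. Cox6c rose by 1.06 and Cox5a, a matrix-side subunit of complex IV, by 0.81 on the log2 scale. Cox7a1, the heart and skeletal muscle form of subunit 7a (chr7:30184144-30186078, plus strand), was measured at 6.17, 7.03 and 5.02 CPM in caput libraries, 4.16, 2.59 and 2.38 in those of the corpus and 0.636, 3.03 and 1.73 in those of the cauda and fell (log2 fold change -1.23, SE 0.23, adjusted p = 0.00153). The processed copy Cox6c2 also passed the test (1.37), but shares 97.0% of 231 bases with Cox6c, and Ndufb4c is identical to Ndufb4 over 390 bases, so the reads of these pairs cannot be told apart with certainty.

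**Figure D2:**
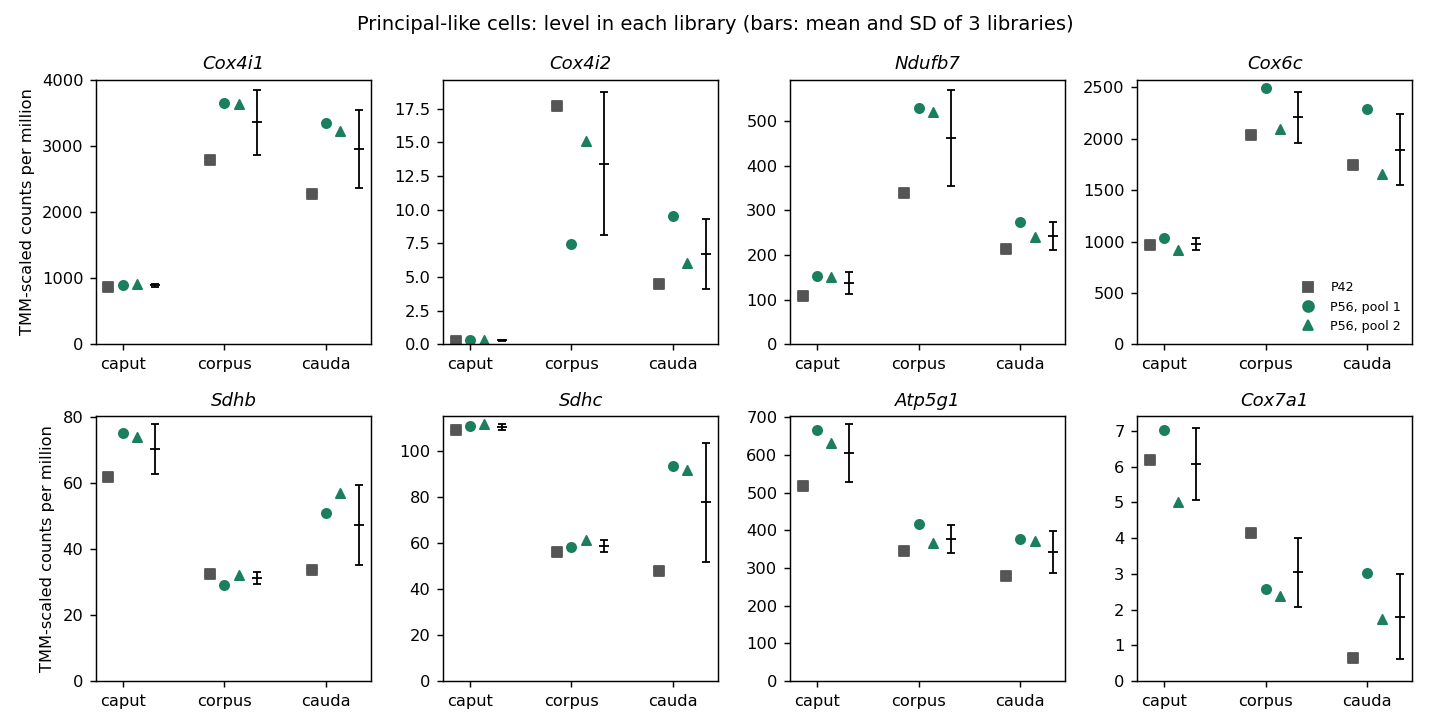
Level (y axis, TMM-scaled CPM) of 8 members in principal-like cells by segment (x axis), 1 point per library with the mean and SD of 3 libraries. Cox4i1 lay at 867 to 912 in the caput and at 2274 or more in the other segments, while Sdhb lay highest in the caput.

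Complex II, in contrast, was lower. Of its 4 subunits, 3 fell and none rose, with a median log2 fold change of -0.54. Sdhb, the iron-sulphur subunit (chr4:140961203-140979193, plus strand), was measured at 61.7, 75.2 and 73.9 CPM in caput libraries, 32.5, 29.0 and 32.1 in those of the corpus and 33.7, 51.0 and 56.9 in those of the cauda, and the caput values all lay above the others (log2 fold change -0.86, SE 0.14, adjusted p = 0.000494). Sdhc, which anchors the enzyme in the membrane with Sdhd, was at 109, 111 and 112 CPM in caput libraries, 56.0, 58.2 and 61.2 in those of the corpus and 47.7, 93.4 and 91.8 in those of the cauda (log2 fold change -0.72, SE 0.16, adjusted p = 0.00417). Sdhc was lowest in the P42 cauda, where only 142 principal-like cells were found. Sdhd fell by 0.35 (SE 0.11), and Sdha, the flavoprotein that oxidises succinate, had -0.16 (adjusted p = 0.402). As a share of all non-mitochondrial UMIs of principal-like cells, complex II came to 0.0325% ± 0.00403 (SD, n = 3) in the caput, 0.0227% ± 0.00385 in corpus libraries and 0.0237% ± 0.00166 in cauda libraries.

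Complex III rose in part, and ATP synthase gave calls in both directions. Of the complex III subunits 4 of 8 tested were higher and 0 lower, with a median log2 fold change of 0.43. Uqcr11 rose by 0.99 and Uqcr10 by 0.86, both small accessory subunits, while Uqcrc1, a core protein, had 0.30 (adjusted p = 0.0539) and Uqcrfs1, the Rieske iron-sulphur protein, 0.05. Of the ATP synthase subunits 4 of 17 tested were higher and 1 lower, with a median log2 fold change of 0.29. The share called higher was about that of all genes tested (23.5%, with 25.2% lower). Its 3 genes for the c subunit, which forms the rotating ring, went different ways. Atp5g1 was measured at 518, 666 and 631 CPM in caput libraries, 345, 418 and 366 in those of the corpus and 279, 376 and 372 in those of the cauda and fell (log2 fold change -0.75, SE 0.13, adjusted p = 0.000669), Atp5g2 rose (log2 fold change 0.76, SE 0.14, adjusted p = 0.00101), and Atp5g3 had 0.04 (adjusted p = 0.854). The catalytic Atp5b (0.04) and Atp5a1 (0.24) were not called.

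The share of mitochondrially encoded RNA moved with the segments in the same cells. It came to 5.33, 5.95 and 5.12% of UMIs in the caput (P42, P56 replicates 1 and 2), 15.5, 17.4 and 22.5% in corpus libraries and 13.6, 16.2 and 14.3% in cauda libraries. All 10 tested mitochondrially encoded subunits, of 13 listed, were higher distally, with a median log2 fold change of 1.64. Among them, mt-Atp6 and mt-Co2 lay near the floor, at 0.160 to 1.27 and 0.0707 to 0.774 CPM over the libraries. Among the other lists, Cycs, the somatic cytochrome c, was called higher distally (0.70), and its testis form Cyct fell from low counts. The rise of Cycs lay mostly in the corpus. It was at 180, 241 and 247 CPM in caput libraries, 501, 651 and 646 in those of the corpus and 126, 288 and 261 in those of the cauda. Between corpus and cauda Cycs fell (log2 fold change -1.47, adjusted p = 0.000406), and its P42 cauda value lay below all caput values. Glycolysis had 11 higher and 1 lower of 16 tested, the citric acid cycle 4 higher and 5 lower of 18 tested. Large-subunit proteins of the mitochondrial ribosome had 9 higher and 9 lower of 45 tested. Sperm glycolysis isoforms had 0 higher and 2 lower of 3 tested and biogenesis regulators 2 higher and 2 lower of 15 tested. Over all genes tested, 23.5% were called higher and 25.2% lower. Ppargc1a, a coactivator of mitochondrial biogenesis, had a log2 fold change of -0.09 and Tfam, which packs and helps transcribe mitochondrial DNA, of -0.06, neither called. The part of these in the members' result was not tested. The members made up 2.45% ± 0.0857 (SD, n = 3) of non-mitochondrial UMIs in principal-like cells of the caput, 3.77% ± 0.164 in corpus libraries and 3.45% ± 0.283 in cauda libraries. In halo/T-like cells the share was 2.50% ± 0.136 in the caput and 3.15% ± 0.399 in corpus libraries (n = 3), but 2.42% ± 0.524 in the 2 cauda libraries with enough cells. In fibroblast/myoid-like cells it was 2.23% ± 0.0561, 2.44% ± 0.263 and 2.31% ± 0.664 (n = 3 each), with ranges that overlapped, and the part of free RNA in this was not tested.

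With cells taken from clusters instead of the marker gate, 11 higher and 7 lower members were called, and without P56 replicate 1 there were 19 higher and 7 lower and without P56 replicate 2 18 higher and 11 lower. Without the P42 cauda library there were 53 higher and 14 lower. A fit with TMM factors set to 1 called 31 higher and 16 lower, the median over all genes moving from 0.00 to -0.13. Cox4i1, Cox4i2, Cox5a, Cox6c2, Ndufb4c, Ndufb6, Ndufb7 and Ndufb8 were called higher, and Cox7a1, Cox7b2, Cox8c, Ndufaf6, Sdhb and Sdhc lower, under every alternative run. Sperm genes were also counted in these cells: the summed sperm markers lay at 34.3, 67.6 and 172 CPM in caput libraries, 199, 116 and 138 in those of the corpus and 50.2, 13.4 and 28.6 in those of the cauda, and Ldhc, one of them, fell distally by 3.11 on the log2 scale. Their part in the calls of Cox7b2 and Cox8c was not tested.

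Summed over all cells of a library, the same contrast called 17 members higher and 5 lower of 98, beside 12.8% and 15.6% of all genes. Cox4i1 was at 807, 944 and 897 CPM in caput libraries, 1905, 3437 and 3627 in those of the corpus and 948, 3048 and 3199.7 in those of the cauda (log2 fold change 1.46, SE 0.31, adjusted p = 0.0137), and Sdhb fell (log2 fold change -0.40, SE 0.12, adjusted p = 0.0458), as did Atp5g1 (-0.69) and Ndufaf1 (-0.68). In such sums, fewer cells of a type and less RNA per cell cannot be told apart. Without the P42 pool 54 higher and 9 lower members were called, without either P56 pool 0 higher and 2 lower, and without the P42 cauda library 40 higher and 10 lower. TMM factors set to 1 gave 15 higher and 15 lower, the median over all genes moving from 0.02 to -0.18. Between cauda and corpus 0 members were higher and 3 lower over all cells by edgeR (3.23% and 6.37% of all genes), with 7 at an unadjusted p under 0.05 and 2 higher and 4 lower by DESeq2, and without the P42 cauda library the balance turned to 6 higher and 4 lower. The 3 were Ndufb7 (log2 fold change -1.06, SE 0.17, adjusted p = 0.0153), Cox7b2 and Cox8c.

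Between the cauda and the corpus of principal-like cells the number of calls rested on the test. By edgeR, 5 members were higher and 5 lower in the cauda (9.7% and 12.1% of all genes), with 20 at an unadjusted p under 0.05. DESeq2 called 14 higher and 7 lower, and edgeR with no filter on low counts 1 higher and 5 lower and with classes from clusters 1 higher and 3 lower. With TMM factors set to 1 there were 0 higher and 7 lower, and with mitochondrial genes left out 8 higher and 5 lower. Sdhb was higher in the cauda (log2 fold change 0.61, SE 0.17, adjusted p = 0.0277), with Uqcrc1 (0.48), the complex I core subunits Ndufs8 (0.46) and Ndufs3 (0.45), and Cox5a (0.44). Ndufb7 (log2 fold change -0.91, SE 0.15, adjusted p = 0.00187) and Sdhd (-0.44) were lower. The testis forms Cox6b2, Cox7b2 and Cox8c were also lower, from few counts: Cox7b2 was detected at 14, 27 and 40 UMIs in the caput, 10, 8 and 15 UMIs in the corpus, 0, 0 and 1 UMIs in the cauda. The summed sperm markers given above were also lower in the cauda libraries than in those of the corpus. Without the P42 pool 24 members were called between cauda and corpus, without P56 replicate 1 2, without P56 replicate 2 2 and without the P42 cauda library 21.

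In clear/narrow-like cells the members called were all higher distally, and no complex II gene was called. In the corpus and cauda 21 of 95 tested members were higher than in the caput and 0 lower by edgeR (25 higher and 0 lower by DESeq2), beside 9.01% and 10.5% of all genes, and 37 had an unadjusted p under 0.05. Complex I had 9 higher of 38, complex III 4 of 8, complex IV 5 of 16 and ATP synthase 3 of 17. The median log2 fold change of the tested members was 0.30, beside -0.01 over all genes tested. Cox5a was measured at 28.7, 40.6 and 49.2 CPM in caput libraries, 48.1, 83.8 and 91.9 in those of the corpus and 75.7, 90.2 and 137 in those of the cauda. The P42 corpus value lay within the caput range and the 5 other distal values above it (log2 fold change 1.12, SE 0.14, adjusted p = 0.000102). Uqcr11 (log2 fold change 0.94, SE 0.17, adjusted p = 0.00146) and Ndufb6 (log2 fold change 0.95, SE 0.15, adjusted p = 0.000499) rose alongside, and Cox5a, Ndufb6 and Uqcr11 were called under every alternative run. Cox4i1 rose by 0.90 and Cox4i2 by 2.25 on the log2 scale. Sdhb, in these cells, was at 112, 151 and 139 CPM in caput libraries, 107, 155 and 201 in those of the corpus and 109, 199.95 and 222 in those of the cauda and did not pass the test (log2 fold change 0.26, SE 0.15, adjusted p = 0.257). Its values overlapped between segments. Leaving out a P56 pool reduced the calls to 3 or 6, and leaving out the P42 pool raised them to 44. Without the P42 cauda library 36 higher and 0 lower members were called.

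In basal-like cells, the progenitor-like cells at the base of the epithelium, 10 of 93 tested members were higher distally and 1 lower. These were 10.8% and 1.08% of the tested members, beside 9.34% and 8.67% of all genes. The share called higher thus lay near that of all genes. The higher genes were led by Cox4i1 at 933, 1036 and 1021 CPM in caput libraries, 1883, 2366 and 2277 in those of the corpus and 1205, 2365 and 2441 in those of the cauda (log2 fold change 1.03, SE 0.21, adjusted p = 0.00294), Atp5g2 (0.98), Ndufb7 (0.87), Cox5a (0.84) and Ndufb6 (0.83), and Atp5g1 was the 1 that fell (log2 fold change -0.61, SE 0.16, adjusted p = 0.0163). With TMM factors set to 1 the balance of calls in basal-like cells turned to 4 higher and 7 lower, without P56 replicate 1 no member was called, without P56 replicate 2 1, without the P42 pool 18 and without the P42 cauda library 26. In fibroblast/myoid-like cells none of 84 tested members was called by edgeR in either direction, with a median log2 fold change of -0.02 beside 0.00 over all genes (3.84% and 4.85% of all genes), while 10 had an unadjusted p under 0.05 and DESeq2 called 1 higher and 1 lower. Without the P42 cauda library edgeR called 7 higher and 2 lower. With classes from clusters, which assigned more cells, 14 higher and 1 lower members were called there. Under the gate, Cox4i1 had a log2 difference of 1.17 (SE 0.34, adjusted p = 0.0601). Cox4i1 levels by segment were also uneven in the other classes found in every segment. These differences were not tested, nor was the part of free RNA in them. In macrophage/monocyte-like cells they were 889 ± 35.1 CPM in the caput, 1857 ± 489 in corpus libraries and 1702 ± 612 in cauda libraries (SD, n = 3). Endothelial-like cells gave 801 ± 30.3, 1509 ± 301 and 1148 ± 649.8 (SD, n = 3, 3 and 2 libraries). Halo/T-like cells gave 891 ± 69.5, 2212 ± 300 and 1764 ± 998 (SD, n = 3, 3 and 2 libraries). Sperm-like cells gave 845 ± 68.8 in the caput and 2734 ± 401 in the corpus (SD, n = 2 and 3 libraries), and 1177 in 1 cauda library. These CPM come from the fit over all classes and are not on the scale of the values above. On that scale principal-like cells of the caput were at 1226 ± 22.7 (SD, n = 3).

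Whether the segment change itself differed between the 2 epithelial classes was tested as an interaction. The change differed for 16 of 98 members, 10 more positive in clear/narrow-like cells and 6 more negative (13.0% and 10.6% of all genes). All 4 complex II subunits were among the former: the difference of log2 changes was 1.23 (SE 0.16, adjusted p = 8.45e-06) for Sdhb, 0.73 for Sdhd, 0.67 for Sdhc and 0.39 for Sdha. Cox7a1 had the most positive difference, 1.90. Cox4i1 (difference -0.86, SE 0.18, adjusted p = 0.00106), Cox4i2 (-2.77) and Ndufb7 (-0.60) had the more positive change in principal-like cells. Cox7a1 and Sdhb differed under every alternative run, and with classes from clusters they were the 2 members that differed. With TMM factors set to 1 the balance turned to 8 higher and 10 lower, and 5 members differed without P56 replicate 1, 8 without P56 replicate 2, 23 without the P42 pool and 20 without the P42 cauda library.

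**Figure D3:**
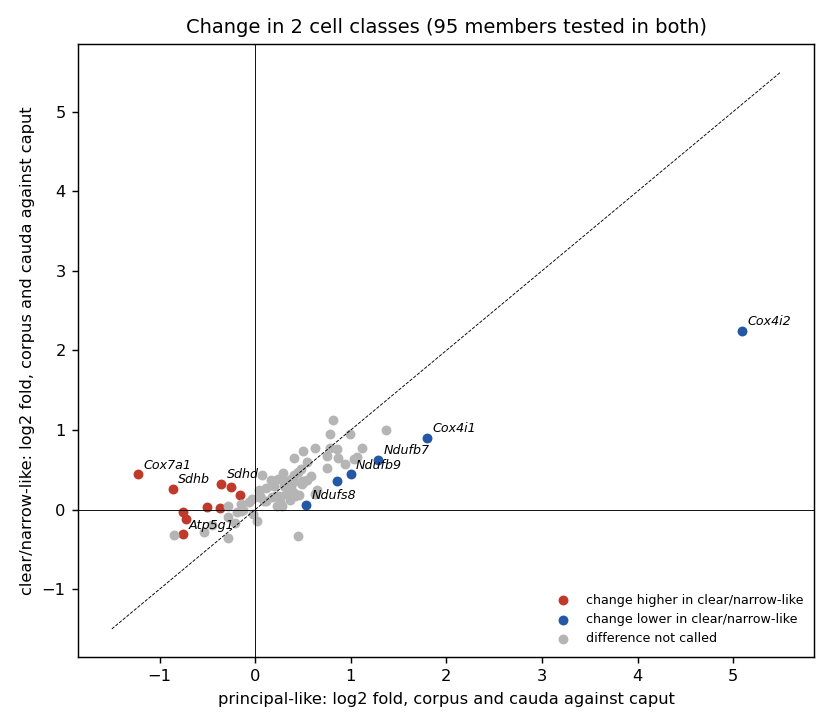
log2 fold change of corpus and cauda against caput of each member in principal-like cells (x axis) and clear/narrow-like cells (y axis), coloured by the interaction test. Sdhb stood at -0.86 on the x axis and 0.26 on the y axis, and Cox4i1 at 1.80 and 0.90.

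Levels between classes were compared in 1 fit with the library as a block, each class against the unweighted mean of the others, and its CPM are not on the scale of the segment fits. Clear/narrow-like and principal-like cells held the highest mean level for 42 and 46 of 95 tested members. As a share of non-mitochondrial UMIs, the members together came to 4.15% ± 0.643 (SD, n = 9) in clear/narrow-like cells and 3.22% ± 0.620 (SD, n = 9) in principal-like cells. All 4 complex II subunits were highest in clear/narrow-like cells, whereas 23 complex I subunits were highest in principal-like and 14 in clear/narrow-like cells. The highest class was not counted over all genes tested, so these counts do not set the members apart from other genes.

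**Figure D4:**
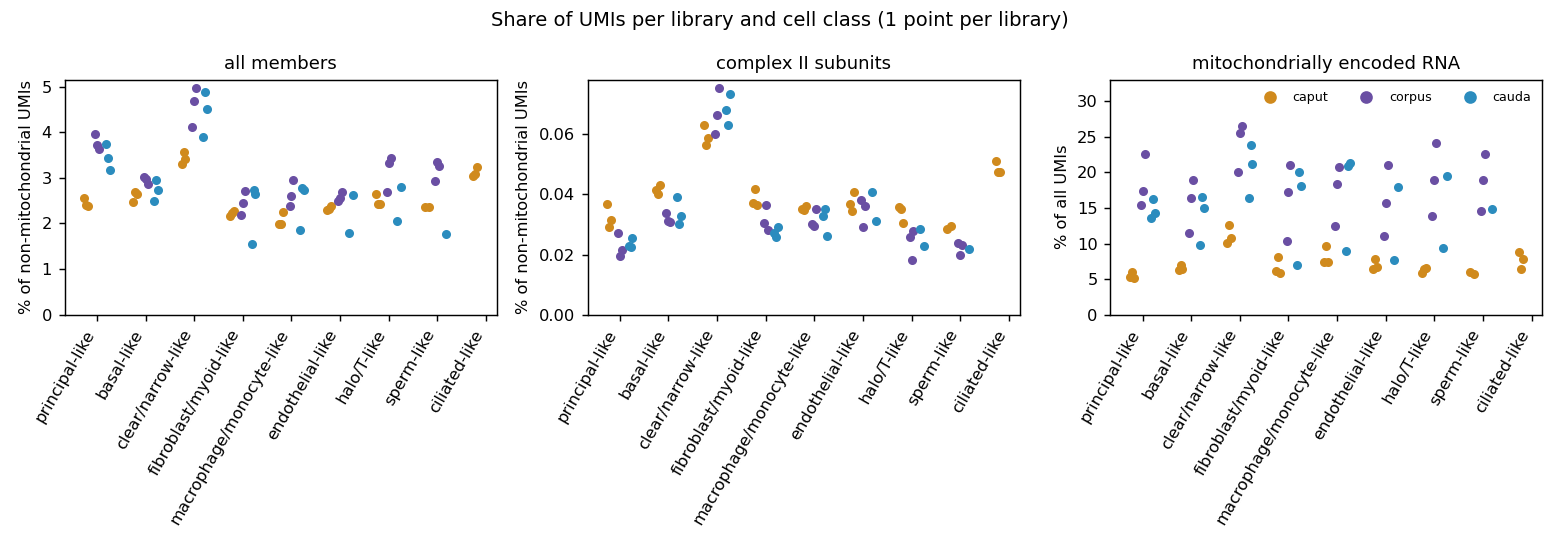
Share (y axis, %) taken by all members of non-mitochondrial UMIs, by the complex II subunits of non-mitochondrial UMIs, and by mitochondrially encoded RNA of all UMIs, in 9 cell classes (x axis), 1 point per library coloured by segment. Clear/narrow-like cells lay highest for complex II, at 0.0594% in the caput beside 0.0325% in principal-like cells.

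In clear/narrow-like cells 77 members were higher and 3 lower than the other classes (23.2% and 22.1% of all genes), and 57 of these were called higher under every alternative run. Sdhd (1.15), the complex I assembly factor Ndufaf6 (1.13), Atp5b (1.08), the complex III subunit Uqcrb (1.07) and Sdhb (0.98) had the largest log2 differences. Atp5b, the catalytic beta subunit of ATP synthase, was at 551 ± 71.3 CPM (SD, n = 9 libraries), from 456 to 665, beside 282 ± 10.2 CPM in principal-like cells, and the 2 ranges did not overlap. Sdhb was at 153 ± 40.5 CPM beside 66.6 ± 25.4 CPM. The citric acid cycle had 17 higher and 0 lower of 17 tested and glycolysis 12 higher and 0 lower of 14 tested. Ppargc1a was at 20.2 ± 11.9 CPM, 2.32 ± 1.21 CPM in principal-like and 19.0 ± 7.05 CPM in ciliated-like cells.

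In principal-like cells 79 members were higher and 5 lower (31.9% and 23.8% of all genes). With TMM factors set to 1 these became 32 higher and 17 lower, the median over all genes moving from 0.04 to -0.38. The largest log2 differences included those of Ndufa1 (1.26; 936 ± 335 CPM (SD, n = 9 libraries)), Cox6c (0.94), Cox4i1 (0.93) and Ndufv3 (0.93). Sdhb (-0.43), Ndufa4l2 (-2.03), a paralogue known to be induced by hypoxia, and the testis forms Cox6b2, Cox7b2 and Cox8c were called lower. The mean of the other classes holds sperm-like cells, and as a share of its pair Cox7b2 came to 0.299% in principal-like, 0.260% in basal-like and 0.349% in clear/narrow-like cells, with intervals that overlapped. In basal-like cells 5 were higher and 19 lower (17.8% and 14.2% of all genes). Ndufa11, a membrane arm subunit, was the 1 member with its highest mean in basal-like cells, at 461 ± 94.5 CPM (SD, n = 9 libraries) (log2 fold change 0.88, SE 0.08, adjusted p = 8.98e-16). Uqcrc1 (0.44), Cox7a2l (0.39), Ndufv1 (0.32) and Atp5a1 (0.18) were higher too. Ndufa4 (-0.52), Ndufv3 (-0.39), Cox5a (-0.30), Ndufb7 (-0.28) and Cox7c (-0.28) were lower. The basal-like calls were 8 higher and 10 lower with TMM factors set to 1. Without P56 replicate 1 or without P56 replicate 2 they were 3 higher and 4 lower in each.

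The testis forms of complex IV were highest in sperm-like cells, and none of the gate markers is a member. Here 7 members were higher and 8 lower (17.0% and 9.41% of all genes) in the 6 libraries with at least 10 such cells. The balance rested on the processing: there were 7 higher and 18 lower with TMM factors set to 1, 10 higher and 19 lower with classes from clusters, 9 higher and 14 lower with a stricter gate, 8 higher and 3 lower with mitochondrial genes left out and 10 higher and 5 lower without the P42 cauda library. Cox7b2 (chr5:71442824-71548205, minus strand; log2 fold change 5.72, SE 0.34, adjusted p = 1.2e-22), Cox8c (chr12:102899316-102900526, plus strand; log2 fold change 5.48, SE 0.29, adjusted p = 1.81e-25) and Cox6b2 (chr7:4751792-4753094, minus strand; log2 fold change 2.61, SE 0.25, adjusted p = 1.52e-14) were higher, with Ndufa4l2 (2.36), Ndufaf2 (0.72), Ndufc1 (0.37) and Uqcrq (0.35). Ndufa4l2 was counted at 30 UMIs in sperm-like cells, 1.78% of its pair with Ndufa4, with single libraries from 0 to 14.6%. Its highest mean was in fibroblast/myoid-like cells. Sdhc (-0.49), Atp5g3 (-0.37), Cox7b (-0.35) and Atp5pb (-0.29) were lower. The share of the pair's UMIs that came from the testis form, not corrected for length, was 39.2% (95% exact interval 36.0 to 42.5%) for Cox7b2 against Cox7b, 20.5% (95% exact interval 18.9 to 22.2%) for Cox8c against Cox8a, 19.3% (95% exact interval 17.5 to 21.2%) for Cox6b2 against Cox6b1 and 12.7% for Cyct against Cycs. These intervals cover counting error only. Cox6b2 was also counted in fibroblast/myoid-like cells, at 446 UMIs beside 350 in sperm-like cells. There it made up 7.28% of its pair, with single libraries from 0.340 to 11.7%. Cox7b2 came to 0.455% and Cox8c to 0.0866% of their pairs in fibroblast/myoid-like cells. Without the P42 pool 9 members were called in sperm-like cells, without P56 replicate 1 6 and without P56 replicate 2 7.

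The share varied widely between libraries. For Cox7b2 it was 63.0 and 43.3% in the caput of P56 replicates 1 and 2, 35.4, 3.08 and 34.9% in the corpus of the 3 pools, and no Cox7b2 UMI was found in the P42 cauda. Cox8c and Cox6b2 gave 35.0 and 30.8% in the caput of P56 replicate 1, where the P42 cauda gave no Cox8c UMI and 4.65% for Cox6b2. The lowest Cox6b2 share, 1.01%, was in another library. The P42 cauda held 42 sperm-like cells with 102272 UMIs, for which 3 UMIs correspond to 29.3 CPM, so a level under that could not be seen. The corpus of P56 replicate 1 had a lower Cox7b2 share than the other 2 corpus libraries. Sperm markers summed to 19717 CPM in that library and to 36413 CPM in the P42 cauda, where they were highest. The sperm glycolysis isoforms had 5 higher and 0 lower of 5 tested, but Gapdhs and Ldhc are markers of the gate. Ciliated-like cells gave 12.5% for Cox7b2, 8.52% for Cox8c, 8.55% for Cox6b2 and 8.47% for Cyct over 3 caput libraries, which differed widely. The P42 library gave 0.568% for Cox7b2, no Cox8c UMI and 3.46% for Cox6b2, whereas P56 replicates 1 and 2 gave 34.6 and 18.7% for Cox7b2, 21.2 and 13.2% for Cox8c and 13.0 and 12.2% for Cox6b2.

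**Figure D5:**
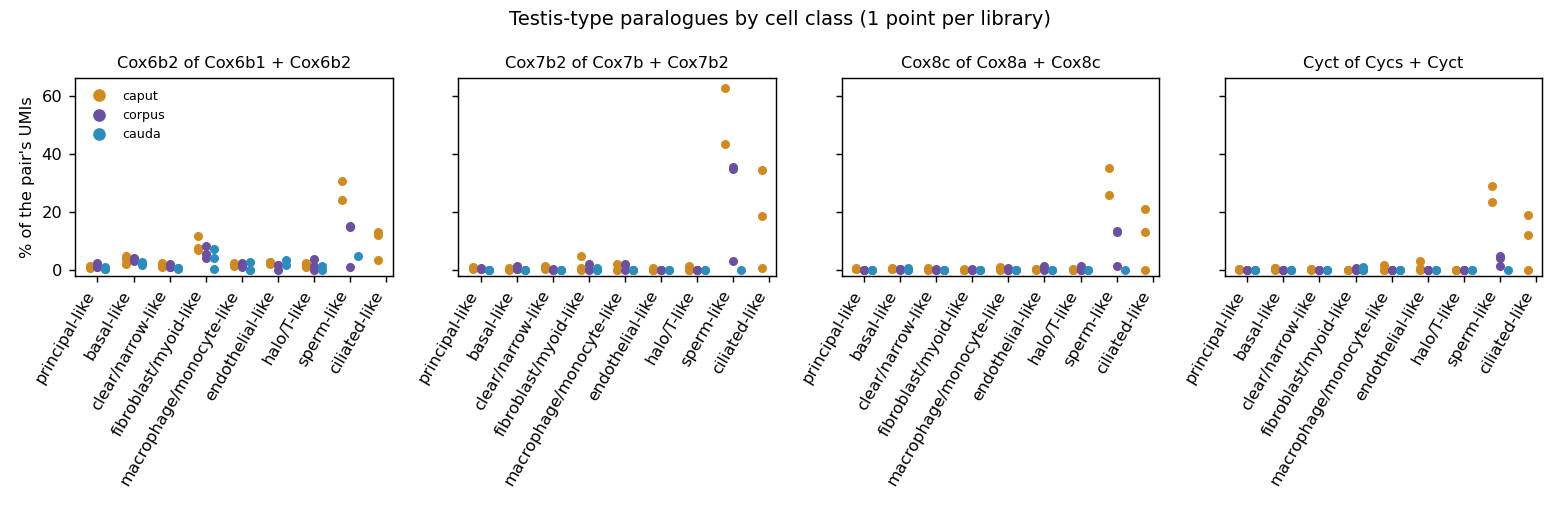
Share (y axis, % of the UMIs of the pair) of Cox6b2 (with Cox6b1), Cox7b2 (with Cox7b), Cox8c (with Cox8a) and Cyct (with Cycs) in each cell class (x axis). With libraries pooled, sperm-like cells lie highest, at 39.2% for Cox7b2 and 12.7% for Cyct. The library median of Cyct was lower in sperm-like (4.60%, n = 6) than in ciliated-like cells (11.96%, n = 3). For Cox8c these medians were 13.27 and 13.25%, and for Cox6b2 and Cox7b2 they were higher in sperm-like cells.

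Age was compared in principal-like cells, P56 (6 libraries of 2 pools) against P42 (3 libraries of 1 pool). Only 2 members were higher and 1 lower at P56 (1.27% and 1.2% of all genes). Ndufa12, an accessory complex I subunit, was at 154, 239 and 245 CPM in caput libraries, 232, 317 and 306 in those of the corpus and 241, 354 and 315 in those of the cauda in order of P42, P56 replicate 1 and P56 replicate 2 (log2 fold change 0.52, SE 0.12, adjusted p = 0.0498). In each segment the P42 value was the lowest. Ndufaf8, an assembly factor, was at 38.0 ± 2.79 CPM at P42 and 53.9 ± 5.80 CPM at P56 (SD, n = 3 and 6 libraries; log2 fold change 0.50, SE 0.11, adjusted p = 0.0478). Cox6c2 was lower (log2 fold change -1.33, SE 0.26, adjusted p = 0.0375), with the same doubt about its reads as above. DESeq2 called 41 higher and 1 lower members and a scaling with TMM factors set to 1 called 0 higher and 17 lower, while leaving out the 100 most abundant genes gave 1 higher and 1 lower. The counts over all genes moved too: over all genes DESeq2 called 1180 higher and 767 lower, the fit with TMM factors set to 1 called 91 higher and 4278 lower, and the median over all genes went from 0.02 to -0.42 while that of the members went from 0.30 to -0.17. Without P56 replicate 1 or without P56 replicate 2 no member was called by edgeR, 5 were without the P42 cauda library, and 51 members had an unadjusted p under 0.05. With 1 pool at P42, age and pool cannot be told apart, and the p-values do not cover the spread between P42 pools.

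Among the members, 3 were too rare to be tested in any comparison. Cox8b, the muscle form of subunit 8, gave 20 UMIs in all cells, Ndufa11b, which shares 94.8% of 424 bases with Ndufa11 so that its reads are uncertain, 40 and Cox6a2, the muscle form of subunit 6a, 80. Cox6a1, the common partner of Cox6a2, was at 518, 716 and 649 CPM in caput libraries, 812, 1114 and 1118 in those of the corpus and 822, 1361 and 1137 in those of the cauda in principal-like cells (log2 fold change 0.75, SE 0.14, adjusted p = 0.00152). Ndufa4l2 made up 5.14% of the UMIs of its pair with Ndufa4 in fibroblast/myoid-like cells and 4.71% in endothelial-like cells over all libraries. Single libraries ranged from 0.641 to 7.64% (median 2.12%, n = 9) and from 0 to 7.0% (median 2.17%, n = 8).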

How the data were processed

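Cells of the epididymis were captured on a microfluidic chip and sequenced as single-cell RNA-seq. Per the labels and the study's methods, reads were cleaned with fastp, barcodes and UMIs were handled with UMI-tools, and reads were mapped with STAR (2.7.3a) to GRCm38.p6 and assigned to exons with featureCounts. The authors deposited raw UMI counts per gene and barcode, without normalization. All values were whole numbers.

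Cells with 300 to 4000 genes, at most 20000 UMIs and under 50% mitochondrially encoded UMIs were kept, and 1051 globin-rich cells were left out. Every class but the principal-like one needed at least 3 of its markers and a summed level over both a cut set per class and 4 times the 25th percentile of its library. Principal-like cells were those left over with at least 3 epithelial markers, summed epithelial or secretory markers above the median of the non-epithelial classes of the library, and markers of every other class under 0.5 times its cut. Cells with markers of 2 classes (937) and those that met no rule (9687) entered no class, no doublet caller was run, 3724 cells lay near a cut, and 86.4% of the cells in a class had the same class in clusters. Clusters, used for that alternative alone, were found by Leiden partition of a graph of shared nearest neighbours after scaling with scanpy 1.11.5. This clustering took the place of another one after its results had been seen, because the earlier did not repeat exactly from run to run. A class entered a comparison in libraries with at least 10 cells.

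UMIs were summed per library and class, filtered with filterByExpr, scaled by TMM and tested with edgeR 4.0.16 (R 4.3.3) across all genes, with Benjamini-Hochberg adjusted p-values and calls under 0.05. CPM are UMIs per 1000000 of the TMM-scaled total, and a share is a percent of UMIs with an exact binomial interval. Segments were tested with the pool as a block because the mice of a pool gave all 3 of its segments; deviations from the segment means correlated at 0.311 to 0.788 in the same pool and at -0.747 to 0.656 in different pools, where libraries of the 2 P56 pools were all positively correlated. Classes were tested with the library as a block, and age with no block. P-values of the segment tests measure how far segment differences vary between 3 pools, once the level of each pool is taken out. Those of the class tests measure how far class differences vary between libraries, and those of the age test the spread between libraries. In both, 3 libraries share the mice of a pool, and the p-values may be too small. DESeq2 1.42.0, other scalings, filters, gates and left-out pools were the alternatives, and the fit without the P42 cauda library was chosen after seeing the data. On simulated counts, between 36.5% (interaction) and 88.0% (all cells, segments) of 200 genes changed by 1 on the log2 scale were recovered. The simulated counts had the same dispersion for every gene and no difference between pools. The data do differ between pools, so recovery in them may be lower.

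Named in each comparison were up to 5 called members with the largest log2 fold change in each direction with the same sign in every pool or library, the paralogues with restricted expression and their partners, 1 or 2 core subunits per complex, and listed genes beside them (mitochondrially encoded subunits, cytochrome c, biogenesis regulators, citric acid cycle, glycolysis, sperm glycolysis isoforms and the large subunit of the mitochondrial ribosome). Some further members named in the text were chosen after their values were seen. The members, lists, markers and tests were chosen with earlier results of these data known. Positions came from GENCODE for 99 of the 101 members, promoters from RefSeq, and sequence identity from transcripts aligned with biopython 1.88. All 101 members were counted, and 98 passed the filter on low counts in principal-like cells.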

Additional observations from a re-analysis of the deposited data

Results flagged for a closer look

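The change from the caput to the corpus and cauda differed between clear/narrow-like and principal-like cells for 16 members in the interaction test across all genes (edgeR, adjusted p under 0.05). Of the tested members 10.2% were more positive and 6.12% more negative in clear/narrow-like cells, beside 13.0% and 10.6% of all genes. Given as the log2 change in clear/narrow-like cells minus that in principal-like cells, the difference was positive for complex II subunits, assembly factors and other members, Cox7a1 (1.90), Sdhb (1.23), Ndufaf6 (0.81), Sdhd (0.73), Sdhc (0.67), Ndufa10 (0.58), Ndufa13 (0.58), Atp5g1 (0.50), Ndufaf2 (0.43) and Sdha (0.39). It was negative for Cox4i2 (-2.77), Cox4i1 (-0.86), Ndufb7 (-0.60), Ndufb9 (-0.50), Ndufb4 (-0.45) and Ndufs8 (-0.41). In each of 24 sets of 6 or 9 library levels of a named gene in a cell class, no library lay far enough from the others to stand out.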

How the results depend on the processing

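Counts of members called are given where an alternative moved them by over 1.5 times or turned the balance of higher and lower calls; main counts stand in the report, and the cause was not tested. With DESeq2, the members called were 35 (24 higher, 11 lower) for all cells, distal against caput, 6 (2 higher, 4 lower) for all cells, cauda against corpus, 21 (14 higher, 7 lower) for principal-like, cauda against corpus, 18 (16 higher, 2 lower) for basal-like, distal against caput, 2 (1 higher, 1 lower) for fibroblast/myoid-like, distal against caput and 42 (41 higher, 1 lower) for age. With no filter on low counts, the members called were 6 (1 higher, 5 lower) for principal-like, cauda against corpus, 1 (1 higher, 0 lower) for fibroblast/myoid-like, distal against caput, 11 (4 higher, 7 lower) for basal-like against other classes, 10 (7 higher, 3 lower) for sperm-like against other classes and 7 (6 higher, 1 lower) for age. With TMM factors set to 1, the members called were 11 (4 higher, 7 lower) for basal-like, distal against caput, 1 (0 higher, 1 lower) for fibroblast/myoid-like, distal against caput, 49 (32 higher, 17 lower) for principal-like against other classes, 25 (7 higher, 18 lower) for sperm-like against other classes, 17 (0 higher, 17 lower) for age and 18 (8 higher, 10 lower) for interaction. With mitochondrial genes left out, the members called were 11 (8 higher, 3 lower) for sperm-like against other classes. With no limit on the mitochondrial share of cells, the members called were 12 (8 higher, 4 lower) for sperm-like against other classes. With classes from clusters, the members called were 18 (11 higher, 7 lower) for principal-like, distal against caput, 4 (1 higher, 3 lower) for principal-like, cauda against corpus, 19 (19 higher, 0 lower) for basal-like, distal against caput, 15 (14 higher, 1 lower) for fibroblast/myoid-like, distal against caput, 29 (10 higher, 19 lower) for sperm-like against other classes, 14 (12 higher, 2 lower) for age and 2 (2 higher, 0 lower) for interaction. With a stricter gate, the members called were 23 (9 higher, 14 lower) for sperm-like against other classes. Without the pool as a replicate block, the members called were 5 (2 higher, 3 lower) for all cells, distal against caput, 6 (5 higher, 1 lower) for basal-like, distal against caput and 6 (6 higher, 0 lower) for clear/narrow-like, distal against caput. Leaving out 1 pool or the P42 cauda library gave 2 to 63 for all cells, distal against caput, 0 to 15 for all cells, cauda against corpus, 26 to 67 for principal-like, distal against caput, 2 to 24 for principal-like, cauda against corpus, 0 to 26 for basal-like, distal against caput, 3 to 44 for clear/narrow-like, distal against caput, 0 to 9 for fibroblast/myoid-like, distal against caput, 68 to 84 for principal-like against other classes, 7 to 27 for basal-like against other classes, 63 to 79 for clear/narrow-like against other classes, 6 to 15 for sperm-like against other classes, 0 to 5 for age and 5 to 23 for interaction. With 2 pools left, the spread rests on fewer samples. Every other alternative kept the count within 1.5 times, and other shifts in the balance of higher and lower calls stand in the report. Of 984 values of 81 named gene results under the alternatives, 836 kept their direction and call, 148 kept the direction only, and 0 reversed. Without the replicate block 38 members were called in principal-like cells, distal against caput, beside 52 with it. Other runs of the clustering had given other counts of calls than those given here, so that the counts from clusters depend on the clustering too. Low counts limited Cox4i2, Cox7a1, Cox7b2, Cox8c and Ndufa4l2, and free RNA was not subtracted.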

Other observations

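Some listed genes beside the members differed between classes. Glycolysis enzymes were higher in clear/narrow-like cells, among them Gapdh (1.0) and Ldha (1.29) on the log2 scale (edgeR, adjusted p = 2.79e-16 and 1.31e-20). Large-subunit proteins of the mitochondrial ribosome had 34 higher and 0 lower of 44 tested in principal-like cells (31.9% and 23.8% of all genes). In clear/narrow-like cells they had 19 higher and 1 lower of 44 tested (23.2% and 22.1% of all genes). Ppargc1a was higher in clear/narrow-like cells (log2 fold change 2.93, SE 0.22, adjusted p = 9.8e-19) and Tfam in sperm-like cells (log2 fold change 1.68, SE 0.16, adjusted p = 1.51e-14). In sperm-like cells Pgk2, the testis phosphoglycerate kinase, had log2 fold change 6.13, SE 0.21, adjusted p = 8.25e-37, while Cycs had log2 fold change 0.13, SE 0.14, adjusted p = 0.562.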
